A study of Sus scrofa with 9 samples.

Results

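The surface markers that define mesenchymal stem/stromal cells (MSCs) were examined for their 5-hydroxymethylcytosine (5hmC), a DNA base made from methylated cytosine by the TET enzymes. The set held 10 genes, chosen by name with earlier results of these data known. Of these, 7 are positive markers (THY1, NT5E, ENG, CD44, ALCAM, VCAM1 and MCAM) and 3 are hematopoietic markers (PTPRC, CD34 and CD14). All 10 were present in both deposited tables, which list 18933 and 18992 genes.

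The 9 libraries came from 3 groups of 3. Lean-MSCs came from female domestic pigs given standard chow, and Obese-MSCs from pigs given a high-fat/high-fructose diet for 16 weeks, both from the age of 3 months. The third group was Obese-MSCs treated in culture with vitamin-C, a cofactor of the TET enzymes, at 50 µg/mL for 48 h. All cells were grown out of subcutaneous abdominal fat in platelet lysate medium and passaged before use. By the paper's account this medium already held some vitamin-C, so the untreated cultures were not free of it. The paper adds that the treatment's effect might for this reason be understated. The paper describes Obese-MSCs grown for a further passage with or without vitamin-C. The labels do not say which treated and untreated cultures share a pig, so every test here was unpaired. In the vitamin-C comparison, differences between pigs therefore remain in the spread that the tests and intervals use. A paired comparison was not tested. The p-values measure the spread between these libraries only.

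Cultured MSCs are identified by adherence, by differentiation into bone, cartilage and fat cells, and by a panel of surface proteins. The panel requires CD90 (THY1), CD73 (NT5E) and CD105 (ENG) and excludes blood cell proteins such as CD45 (PTPRC), CD34 and CD14. Gene bodies of transcribed genes often carry 5hmC, but the mark is not a measure of transcript or protein, so none of the values below show whether a marker was expressed or which cells were present.

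Each value is a normalized count of reads from 5hmC-enriched DNA over the exons of 1 gene in 1 library (hMeDIP-seq). No input values were used here, so background reads were not separated from those of the mark. Library totals lay between 494566 and 522269 normalized counts in the table of Obese- and Lean-MSCs and between 547242 and 593846 in the table of vitamin-C treatment. Both tables hold the untreated Obese libraries. In the second their markers were between 1.075 and 1.146 times as high, where they exceeded 3 normalized counts, so values were compared only within a table. A longer gene collects more reads and the values are not divided by length, so levels of different genes were not ranked. In these bulk cultures, a change in the share of cells that carry the mark and a change in the mark per cell cannot be told apart.

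Obese-MSCs were first compared with Lean-MSCs, to ask whether the diet left a difference in the mark at the genes that identify the cells. No marker met the criteria that the study states, applied here to the deposited values, which require a p-value, without adjustment, no greater than 0.05 together with mean values that differ by a ratio no smaller than 1.4 (high) or no larger than 0.7 (low). That is 0 of 10, where 2.07% of all genes met them as high and 2.43% as low. The largest difference among markers with a mean above 3 normalized counts was in ENG, which was 1.42 times as high in Obese-MSCs. The lowest was in PTPRC, at 0.792 of the Lean level. Neither reached the p-value criterion.

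ENG encodes endoglin, a co-receptor for ligands of the TGF-beta family, and lies on chromosome 1 from 268309379 to 268343861 (Sscrofa11.1). It had 52.7, 67.4 and 51.95 normalized counts in Obese 1, 2 and 3, against 51.70, 37.7 and 31.9 in Lean 7, 8 and 9, the order kept below. Every Obese library was above every Lean library, but the lowest Obese and the highest Lean library almost touched. The means were 57.3 ± 8.72 and 40.4 ± 10.2 (SD, n = 3 each), a log2 ratio of 0.50 (two-sided exact permutation test, p = 0.1, the smallest that 3 libraries against 3 allow). In limma, a model fitted to log2(value + 1) of all genes with sufficient signal, the fold change of ENG was 1.43 with a 95% interval from 0.988 to 2.06 and a Benjamini-Hochberg adjusted p of 0.743. Without Lean 7 the ratio was 1.65 and ENG met the criteria, whereas without Obese 2, Lean 8 or Lean 9, or after quantile normalization (log2 ratio 0.48), its ratio was below 1.4.

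THY1 encodes CD90, a small lipid-anchored glycoprotein (chromosome 9 from 46607022 to 46612691). Its normalized counts were 25.1, 23.7 and 16.7 for Obese, compared with 17.0, 21.9 and 12.4 for Lean. The groups overlapped, with Obese 3 below 2 of the Lean libraries. The mean was 1.28 times as high in Obese-MSCs (exact permutation test, p = 0.3).

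NT5E encodes CD73, the enzyme that turns extracellular AMP into adenosine (chromosome 1 from 54400786 to 54450743). Obese-MSCs had 34.4, 32.3 and 26.1 normalized counts, whereas Lean-MSCs had 16.2, 28.8 and 35.9. The highest and the lowest of the 6 values were both in Lean libraries. The ratio of means was 1.147 (exact permutation test, p = 0.7), and without Lean 7, the low one, the log2 ratio turned to -0.07.

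CD44, the receptor for hyaluronan, lies on chromosome 2 from 25788699 to 25884209. Its values were 176, 194 and 191 normalized counts for Obese and 183, 211 and 152 for Lean. The Obese libraries all fell within the range of the Lean ones. The ratio was 1.03 (exact permutation test, p = 0.8), and the limma interval for the fold change ran from 0.797 to 1.35. CD44 was the only marker whose interval lay wholly inside the ratios of 0.7 and 1.4, so differences of the size the criteria require were outside the interval for this gene and inside it, on at least 1 side, for the 7 other markers tested.

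**Figure D1:**
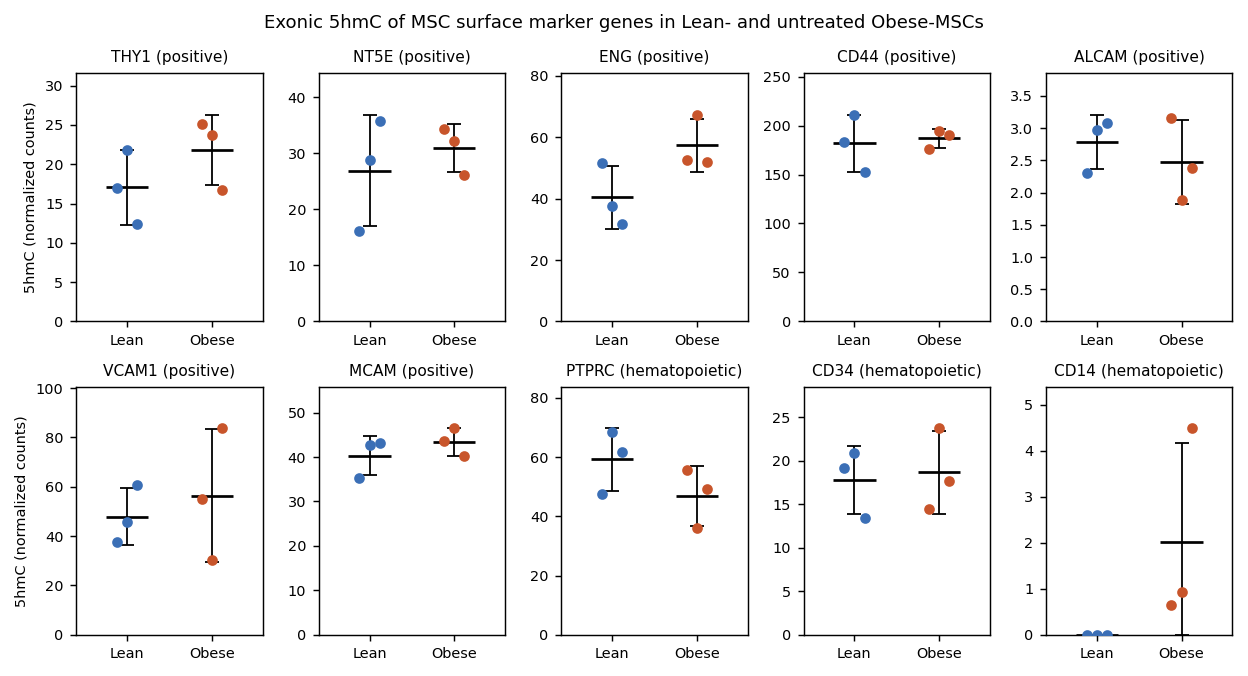
Normalized counts of exonic 5hmC (vertical axes, each from 0) for the 10 marker genes in the 3 Lean (blue) and 3 untreated Obese (orange) libraries, with bars at the mean and whiskers of 1 SD, ended at 0. ENG and CD14 are the genes whose groups do not overlap. ENG has means of 57.3 and 40.4, and CD14 is listed at 0 in every Lean library.

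The adhesion molecules of the immunoglobulin superfamily followed. VCAM1 (chromosome 4 from 117496914 to 117511211), which binds integrins on leukocytes, measured 55.1, 30.1 and 83.9 normalized counts for Obese, beside 37.6, 45.7 and 60.5 for Lean. Obese 2 was the lowest and Obese 3 the highest of all 6. With a coefficient of variation of 47.7% among the Obese libraries, the ratio of 1.18 was well within the spread (exact permutation test, p = 0.7), and its log2 value turned to -0.17 without Obese 3.

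MCAM, or CD146, an adhesion molecule of pericytes, endothelium and perivascular stromal cells, lies on chromosome 9 from 46506375 to 46522091, 84.9 kb from THY1 with 5 annotated genes wholly between them. Its values, 43.5, 46.5 and 40.1 for Obese against 35.2, 42.7 and 43.1 for Lean, were among the most even of the set. The ratio was 1.08 (exact permutation test, p = 0.4). The annotated span of MCAM overlaps that of CBL, a ubiquitin ligase gene, over 6481 of its 15717 bases, so reads in shared exons could not be assigned to 1 of them. CBL itself averaged 110 ± 30.0 normalized counts for Obese and 93.6 ± 13.5 for Lean (SD, n = 3 each), and its part in the MCAM values was not tested.

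ALCAM, the ligand of CD6 (chromosome 13 from 153794991 to 153998241), had few reads. It ranged from 1.88 to 3.16 normalized counts for Obese and from 2.299 to 3.08 for Lean. No fold change is given for a mean of 3 normalized counts or less, and ALCAM was below the mean that limma required.

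Among the hematopoietic markers, PTPRC, the CD45 tyrosine phosphatase of leukocytes (chromosome 10 from 21482984 to 21601627), measured 55.6, 35.9 and 49.4 normalized counts for Obese, against 47.7, 68.5 and 61.6 for Lean. The groups overlapped through Obese 1 and Lean 7. The mean was 46.9 ± 10.0 against 59.3 ± 10.6 (SD, n = 3 each; exact permutation test, p = 0.3), and the limma interval for the fold change, 0.551 to 1.14, held 1. Its log2 ratio was -0.34, and from -0.48 to -0.18 when any single library was omitted.

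CD34, a sialomucin of blood stem cells and endothelium that fresh adipose stromal cells also carry (chromosome 9 from 134912793 to 134937763), measured 14.5, 23.8 and 17.7 normalized counts for Obese. The Lean libraries had 19.2, 20.9 and 13.4. The values were interleaved, with a ratio of 1.05 (exact permutation test, p = 0.9).

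CD14, the lipopolysaccharide co-receptor of monocytes, is a compact gene of 1651 bases on chromosome 2 (142348036 to 142349686). Obese 1, 2 and 3 had 0.650, 0.924 and 4.49 normalized counts at CD14, which was listed at 0 in all Lean libraries. The groups did not overlap (exact permutation test, p = 0.1), but the mean over the 6 libraries was below 3 normalized counts and 1 library, Obese 3, held most of the signal. No fold change is given. Without Obese 3, CD14 met the criteria on 2 values below 1 normalized count.

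Groups that did not overlap were thus found for 2 of the 10 markers, ENG and CD14, both higher in Obese-MSCs. Of all genes, 5.7% were higher and 6.06% lower without overlap. For CD14 this rested on values of 0 against values partly below 1 normalized count. The number of genes listed at 0 also varied by library, from 0 in Obese 3 to 870 in Lean 8. In limma, 8 markers had sufficient signal and 0 passed an adjusted p of 0.05, with adjusted values from 0.743 to 0.990. By the unadjusted limma p, 0 of the 8 were at 0.05 or less, against 6.81% of 15146 genes at the unadjusted and 0% at the adjusted threshold.

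**Figure D2:**
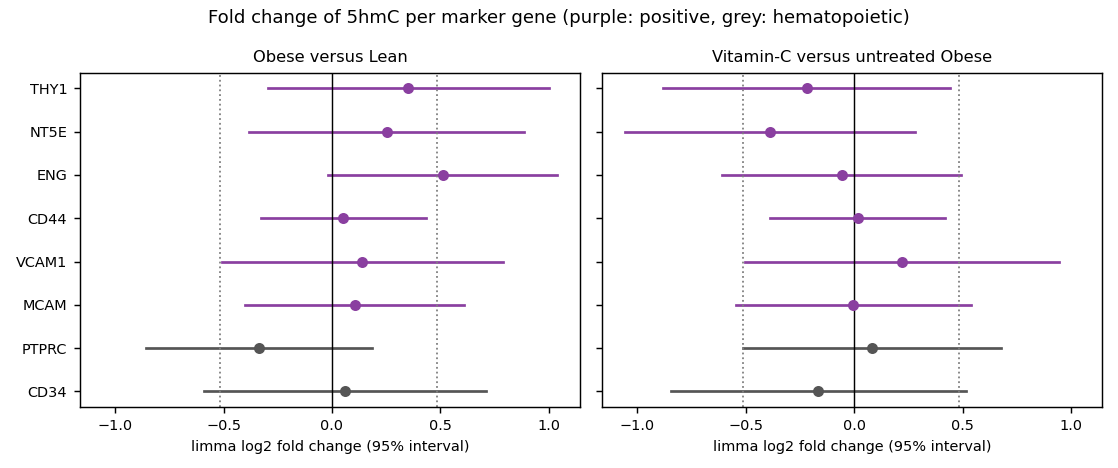
Limma log2 fold change (points) and 95% interval (lines) of the 8 marker genes with sufficient signal, for Obese- versus Lean-MSCs (left) and vitamin-C-treated versus untreated Obese-MSCs (right), with dotted lines at ratios of 0.7 and 1.4. All 16 intervals cross 0, and the narrowest is that of CD44 in both comparisons, with half-widths of 0.38 and 0.40.

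The positive and the hematopoietic markers were then set against each other. In Obese-MSCs, the 6 positive markers with a mean above 3 normalized counts all had ratios above 1, with a median log2 ratio of 0.22 and a range from 0.04 to 0.50, while 8031 of the 15845 genes with such a mean had ratios above 1 and their median was 0.01. Of the hematopoietic markers above 3 normalized counts, PTPRC was below 1 and CD34 above it. The positive signs of NT5E, CD44 and VCAM1 turned when 1 library was left out, and that of CD44 also after quantile normalization.

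To compare the classes within a library, the values of the 7 positive markers were summed and divided by the sum of the 3 hematopoietic ones. This quotient was 5.52, 6.54 and 5.75 for Obese, compared with 5.13, 4.37 and 4.52 for Lean. All Obese libraries were above all Lean libraries, with means of 5.94 ± 0.532 and 4.67 ± 0.403 (SD, n = 3 each). The positive sum was 399 ± 11.14 against 357 ± 28.5 normalized counts (SD, n = 3 each), and Obese 1 and Lean 8 both had 390. The hematopoietic sum was 67.6 ± 6.08 against 77.1 ± 11.4 (SD, n = 3 each), and the groups overlapped. The ratio is a description, without a test, of a set chosen by name with earlier results of these data known.

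CD44 supplied between 44.9% and 53.9% of the positive sum and PTPRC between 59.3% and 82.2% of the hematopoietic sum. Leaving out each member in turn, the groups overlapped without PTPRC or without CD34 and did not overlap in the other 8 of 10 cases. ALCAM and CD14 held only a few normalized counts, so leaving either out could change the quotient little. The quotient is made of the same values as the ratios of single markers above and is not separate support for them. Without CD44 the ratio was between 3.03 and 3.33 in Obese-MSCs and between 2.01 and 2.49 in Lean-MSCs. Without PTPRC it lay between 16.0 and 25.8 in Obese-MSCs and between 17.9 and 25.3 in Lean-MSCs, and without CD34 it lay between 6.94 and 10.8 and between 5.50 and 7.19, so the groups overlapped in both cases.

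**Figure D3:**
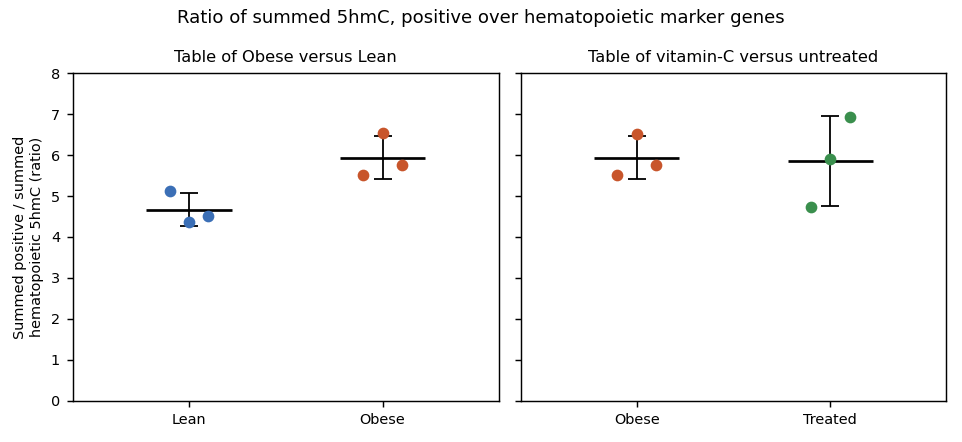
Summed 5hmC of the 7 positive markers divided by that of the 3 hematopoietic markers (vertical axis, a ratio from 0) in each library, for Lean and Obese (left) and for untreated and vitamin-C-treated Obese libraries (right), with the mean and 1 SD. The Obese libraries lie between 5.52 and 6.54 and the Lean libraries between 4.37 and 5.13, while the treated libraries lie between 4.73 and 6.93, on both sides of the untreated ones.

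Vitamin-C-treated Obese-MSCs were next compared with untreated Obese-MSCs, to ask whether a TET cofactor shifted the mark at the same genes. The tests were unpaired, so a shift smaller than the differences between pigs could go undetected. Again 0 of 10 markers met the criteria, where 1.11% of all genes met them as high and 0.806% as low, and no marker passed the ratio or the p-value criterion alone. The groups overlapped for all 10, where 3.24% of all genes were higher and 2.67% lower without overlap. Of the 8 markers tested with limma, 0 passed at the adjusted threshold, each with an adjusted p of 1, and 0 at the unadjusted one, against 0% and 0.974% of 15192 genes.

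NT5E was the marker that differed most, with 22.1, 40.01 and 19.5 normalized counts in the treated libraries and 38.1, 36.5 and 28.8 in the untreated ones. Treated 4 and 6 were below all untreated libraries and Treated 5 was above them all. The ratio of means was 0.791 (exact permutation test, p = 0.4), with a limma interval for the fold change from 0.480 to 1.22. Without Treated 5 the ratio was 0.605 and NT5E met the criteria.

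THY1 had 17.1, 18.5 and 27.0 normalized counts with vitamin-C and 27.7, 26.8 and 18.5 without. Each group had values near 18 and near 27, in different numbers, and the ratio was 0.857 (exact permutation test, p = 0.4).

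ENG had 47.3, 66.7 and 71.7 normalized counts in treated and 58.7, 76.1 and 57.2 in untreated Obese-MSCs. The lowest value was in a treated and the highest in an untreated library. The ratio was 0.968 (exact permutation test, p = 0.9), with a limma interval from 0.656 to 1.41. Set side by side, the log2 ratios in Obese- versus Lean-MSCs and then in treated versus untreated Obese-MSCs were 0.50 and -0.05 for ENG, 0.36 and -0.22 for THY1, 0.20 and -0.34 for NT5E, 0.04 and 0.02 for CD44, 0.23 and 0.16 for VCAM1, 0.105 and 0.0035 for MCAM, -0.34 and 0.10 for PTPRC and 0.07 and -0.18 for CD34. The untreated libraries serve in both comparisons, on opposite sides, so the pairs of values are not independent.

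CD44 and MCAM differed least between the treated and untreated groups. CD44 had 221, 193 and 219 normalized counts with vitamin-C and 196, 220 and 210 without, a ratio of 1.01 (exact permutation test, p = 0.9), and its interval from 0.765 to 1.34 again lay inside the ratios of the criteria. MCAM had 43.3, 57.5 and 44.7 against 48.4, 52.5 and 44.2 normalized counts, a ratio of 1.00 (exact permutation test, p = 1.0). Its interval, from 0.684 to 1.45, reached past both.

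VCAM1 had 79.5, 46.1 and 85.2 normalized counts in treated and 61.3, 34.5 and 92.2 in untreated libraries, so both groups held values that differed widely. Its ratio of 1.12 was within that spread (exact permutation test, p = 0.8). ALCAM had 2.02, 4.66 and 3.58 normalized counts with vitamin-C and 3.49, 2.17 and 2.63 without, a ratio of 1.24 on values of a few reads (exact permutation test, p = 0.6).

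**Figure D4:**
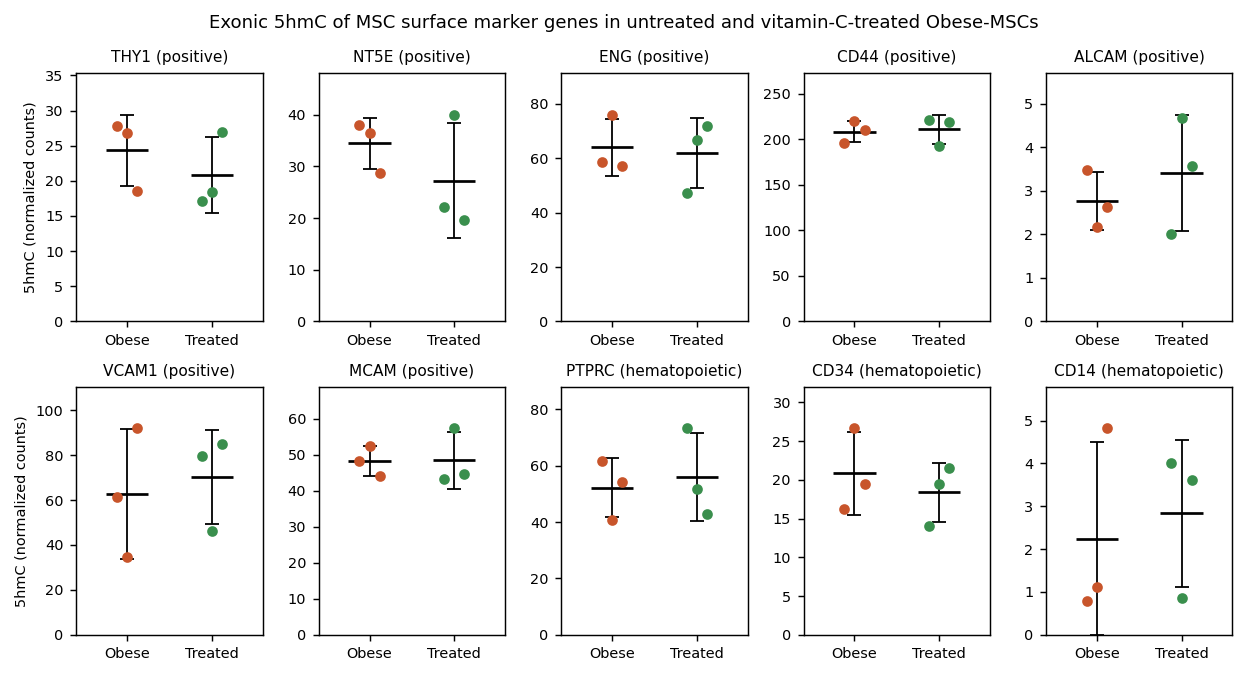
Normalized counts of exonic 5hmC (vertical axes, each from 0) for the 10 marker genes in the 3 untreated (orange) and 3 vitamin-C-treated (green) Obese libraries, with bars at the mean and whiskers of 1 SD, ended at 0. The groups overlap for every gene, and NT5E has means of 34.4 untreated and 27.2 treated, with the highest value in a treated library.

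The hematopoietic markers also overlapped. PTPRC had 73.4, 51.8 and 42.8 normalized counts with vitamin-C and 61.5, 40.9 and 54.3 without (ratio 1.07; exact permutation test, p = 0.8). CD34 had 14.1, 19.5 and 21.6 against 16.3, 26.7 and 19.5 (ratio 0.882; exact permutation test, p = 0.5). CD14 had 4.02, 0.870 and 3.61 normalized counts in treated and 0.786, 1.11 and 4.83 in untreated libraries, so values near 1 and near 4 occurred in both groups. The summed ratio of positive over hematopoietic markers was 4.73, 5.91 and 6.93 in the treated and 5.52, 6.53 and 5.76 in the untreated libraries, with means of 5.85 ± 1.10 and 5.94 ± 0.526 (SD, n = 3 each).

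The markers differed from each other in how evenly they were measured. Within the groups of both tables, the coefficient of variation was between 5.11% and 16.1% for CD44 and between 7.32% and 16.2% for MCAM. It was between 24.3% and 47.7% for VCAM1 and between 13.9% and 41.0% for NT5E. For CD14 it was at least 60.5% in each group with signal. The limma intervals of VCAM1 and NT5E reached from below 1 to fold changes of 1.73 and 1.85 in Obese- versus Lean-MSCs. Those of ENG and THY1, also from below 1, reached higher, to 2.06 and 2.00. Changes of these sizes were thus not excluded by 3 libraries a group.

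Genes that share the biology of the markers were described in the same way. Of 24 other MSC and stromal surface genes, among them integrin chains, tetraspanins and growth factor receptors, 0 met the criteria in either comparison. Of all genes, 2.07% were high and 2.43% low in Obese versus Lean, and 1.11% and 0.806% with vitamin-C. The median log2 ratio of the 24 genes was 0.17 for Obese versus Lean and 0.05 for vitamin-C treatment. ITGB1, the integrin chain that pairs with the VCAM1-binding subunit, averaged 48.8 ± 10.5 normalized counts for Obese and 53.3 ± 8.40 for Lean (SD, n = 3 each). The receptors of platelet-derived growth factor varied more. PDGFRA had 351, 106 and 179 normalized counts for Obese against 228, 160 and 178 for Lean, and PDGFRB 63.4, 64.6 and 30.1 against 22.9, 31.8 and 36.9, and both pairs of groups overlapped.

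Of 23 measured partners and ligands of the markers, including adenosine receptors, TGF-beta receptors, hyaluronan synthases and the CD14 partners TLR4 and LY96, 0 met the criteria in either comparison, with medians of 0.01 and 0.07. The same held for 9 mural cell genes (0.16 and -0.04) and 7 adipocyte genes (0.08 and 0.20). In lists this small, counts of 0 are near the shares of all genes given above. The mural list held the highest log2 ratio of any list in Obese- versus Lean-MSCs, 1.73, in the pericyte proteoglycan gene CSPG4, named after its values were seen. CSPG4 had 15.1, 34.3 and 15.6 normalized counts for Obese and 3.54, 8.94 and 7.19 for Lean, and a limma adjusted p of 0.617. Its groups did not overlap, where 5.7% of all genes were higher without overlap. With vitamin-C CSPG4 had 11.08, 25.03 and 31.6 against 17.1, 38.4 and 17.3. In Obese versus Lean, 7 mural genes had ratios above 1 and 2 below it. The 2, also named after their values were seen, were NOTCH3 and ABCC9. NOTCH3 had a ratio of 0.738 without overlap, where 6.06% of all genes were lower without overlap. ABCC9 had a ratio of 0.689, and its groups overlapped. The median over all genes with a mean above 3 normalized counts was 0.01 for Obese versus Lean and 0.00 for vitamin-C treatment.

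Of 24 measured genes of blood cells other than the 3 markers, 1 was high and 1 low in Obese-MSCs, where 2.07% and 2.43% of all genes were, and 1 was high with vitamin-C, where 1.11% of all genes were. CD3E, a chain of the T cell receptor complex, averaged 29.6 ± 7.00 normalized counts for Obese and 49.5 ± 2.79 for Lean (SD, n = 3 each). CD5, a lymphocyte coreceptor, had 5.28, 7.60 and 8.17 normalized counts against 1.23, 3.97 and 4.10. LYZ, which encodes lysozyme, had 4.73 ± 1.26 normalized counts with vitamin-C and 2.09 ± 0.856 without (SD, n = 3 each). Adjusted p-values from limma were 0.668 for CD3E and 0.733 for CD5, and LYZ had too little signal to be tested with limma. The summed level of the 24 genes ranged from 427 to 551 normalized counts among Obese and from 499 to 537 among Lean libraries, so the groups overlapped. The median log2 ratio of those above 3 normalized counts was -0.004 for Obese versus Lean and -0.0033 for vitamin-C treatment. The monocyte integrin gene ITGAM had 44.8 ± 25.6 normalized counts for Obese and 33.1 ± 7.96 for Lean (SD, n = 3 each).

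Of 11 measured endothelial genes, the angiopoietin receptor gene TEK alone met the criteria, as low, in Obese- versus Lean-MSCs, where 2.43% of all genes were low. With vitamin-C 0 did, where 1.11% of all genes were high and 0.806% low. The median log2 ratio of the 10 endothelial genes above 3 normalized counts was 0.10 for Obese versus Lean, with 7 ratios above 1 and 3 below. With vitamin-C it was -0.21, with 2 above 1 and 8 below, where 8197 of 16233 genes were above 1. TEK had 26.4 ± 4.35 normalized counts for Obese and 41.3 ± 3.06 for Lean (SD, n = 3 each; limma adjusted p = 0.694). PECAM1 had 139 ± 7.04 against 127 ± 25.4 and CDH5 15.4 ± 1.13 against 11.04 ± 4.54 normalized counts (SD, n = 3 each). The summed endothelial level was between 529 and 722 in Obese and between 442 and 608 in Lean libraries. A large part of it was FLT1, a VEGF receptor gene named after its values were seen, with 389, 219 and 348 normalized counts for Obese against 160, 194 and 262 for Lean, which overlapped (limma adjusted p = 0.668). Genes that define blood and endothelial cells thus had reads in the enriched MSC libraries of both diets, as PTPRC did. The parts of background reads and of other cells in these values were not tested. For its cultures, the paper reports MSC surface proteins by flow cytometry and differentiation into bone, cartilage and fat cells. It cites its earlier studies for the absence of CD14, CD34 and CD45 from MSCs harvested by the same protocols.

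**Figure D5:**
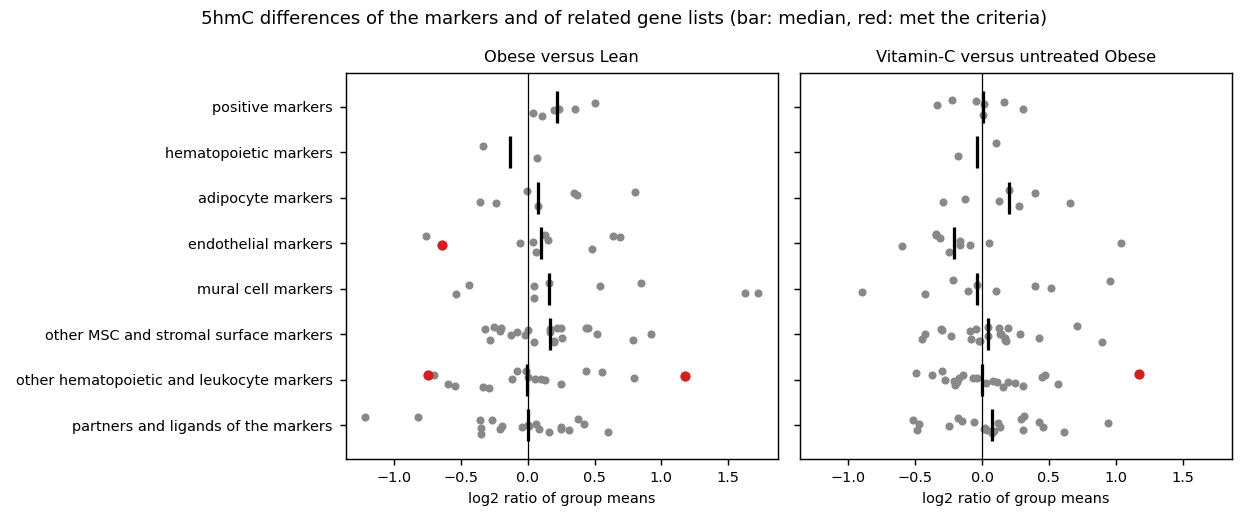
Log2 ratio of group means (horizontal axis) of each gene with a mean above 3 normalized counts, for the positive and hematopoietic markers and 6 related lists, in Obese- versus Lean-MSCs (left) and treated versus untreated Obese-MSCs (right), with bars at the median and genes that met the criteria in red. The positive markers lie between 0.04 and 0.50 on the left, and no marker is red in either comparison.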

How the data were processed

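5hmC-enriched DNA was sequenced in 9 libraries. The authors aligned reads to susScr 11.1 with Bowtie 2 (2.3.3.1), removed duplicates with Picard (1.67), counted reads over exons per gene with HTSeq (0.9.1) and normalized with edgeR (3.28.1). The deposited values are a signal in normalized counts, fractional, with unknown read depth, so no counting intervals were computed.

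Residues below 1e-06 were set to 0 (0 values in the first and 645 in the second table). Calls were recomputed here from the deposited values of all genes, with the thresholds the study states and a two-sided equal-variance test per gene, and no list of calls by the authors was used. limma 3.58.1 (R 4.3.3) was fitted with a trend to log2(value + 1) over the upper 80% of genes by mean. Adjusted p-values are Benjamini-Hochberg. Exact permutation tests used 20 arrangements. Python 3.11.15, numpy 2.4.6, pandas 2.3.3, scipy 1.17.1 and matplotlib 3.10.9 were used. The procedure was also run on simulated data. The changes planted there were larger than the ratios of the criteria and lay in genes above the median level. That run therefore does not show how smaller changes or low values fare.

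Gene positions are from RefSeq for Sscrofa11.1 by symbol (10 of 10 markers). Members and lists were chosen with earlier results of these data known. All markers are named, with list genes that met the criteria and 6 defining genes (ITGB1, PDGFRA, PDGFRB, PECAM1, CDH5, ITGAM), and 1 more that the rule named is not reported here. A planned comparison of levels per exon length was not made, as exon lengths were not used here; the ratio of sums was added after seeing the data. Alternatives were other scalings, tests, thresholds, pseudocounts and filters, and each library left out.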

Additional observations from a re-analysis of the deposited data

How the results depend on the processing

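No marker passed limma's adjusted threshold under any alternative run. By the criteria, the number of markers called stayed at 0 on log2 values, at a p-value threshold of 0.01, with size factors and with quantile normalization, and ranged from 0 to 1 in each comparison with 1 library left out (CD14 without Obese 3, ENG without Lean 7 and NT5E without Treated 5). At a threshold of 0.01, 216 genes were called in Obese versus Lean and 66 with vitamin-C, from 852 and 364.

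Signs turned for small differences. In Obese versus Lean, the log2 ratio of CD44 was -0.0314 after quantile normalization, and with 1 library left out it ranged from -0.073 to 0.16 for CD44, from -0.0654 to 0.46 for NT5E, from -0.17 to 0.54 for VCAM1 and from -0.15 to 0.22 for CD34. With vitamin-C, MCAM was at -0.0028 with size factors, and the ranges were -0.14 to 0.0791 for MCAM, -0.17 to 0.11 for ENG, -0.0253 to 0.0793 for CD44, -0.13 to 0.55 for VCAM1, -0.14 to 0.26 for PTPRC and -0.33 to 0.0377 for CD34. The cause was not tested. In Obese versus Lean, 1 marker had an unadjusted limma p of 0.05 or less without the filter on low values (of 10 tested) and without Lean 7 (of 8), and 0 under the other limma alternatives. With 1 library left out, ENG stayed positive in Obese versus Lean, from 0.36 to 0.72. So did THY1, from 0.17 to 0.57, and MCAM, from 0.0158 to 0.16, while PTPRC stayed negative, from -0.48 to -0.18.

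No paired analysis was possible because the groups share no replicate numbers and the labels do not tie cultures to pigs. The planned ratio of levels per length was not run. CD14 and ALCAM had the lowest values of the set, and the limma intervals of 7 of the 8 markers tested reached past a ratio of 0.7 or 1.4 in each comparison.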

Other observations

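The nearest genes on either side of each marker among those measured in both comparisons were described as well, so unmeasured genes may lie closer. In Obese- versus Lean-MSCs the lowest of their log2 ratios was -1.19, for NECTIN1, 211 kb from THY1, named after its value was seen. In treated versus untreated Obese-MSCs they ran from -0.71 for CDK9, 28.9 kb from ENG, to 0.29 for TMCO6, 2.32 kb from CD14. ENG overlaps FPGS, which encodes folylpolyglutamate synthase, over 19 bases. FPGS averaged 22.7 ± 12.1 normalized counts for Obese and 21.0 ± 12.8 for Lean (SD, n = 3 each), and its log2 ratio was 0.11 where that of ENG was 0.50. NT5E overlaps an uncharacterized gene, not measured here, over 214 bases. The reads came from genomic DNA and carry no transcript strand, so reads in overlapping exons could not be told apart.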
